A study of Mus musculus with 2 samples.

Results

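Ciliated ependymal cells line the ventricles of the brain and move cerebrospinal fluid with tufts of beating cilia. They were examined here in 2 single-cell RNA libraries made from brains of 18-month-old C57BL/6J mice, 1 labelled WT for wild type and 1 labelled KO for CD200R1-/- animals. Both groups were untreated, were kept on standard chow under SPF conditions, and share strain and age. After perfusion with cold PBS the brains were dissociated enzymatically, CD11b+ cells were enriched with magnetic particles, and 10x Genomics 3′ libraries (v3.1 chemistry) were prepared. CD11b marks microglia and other myeloid cells, so ependymal cells were not the population selected for. How many mice were pooled in each library, their sex, how the CD200R1 allele was made and which part of the gene it removes are not given in the sources used here.

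A barcode counted as an ependymal cell when it held at least 500 UMIs (unique molecular identifiers, 1 per captured RNA molecule) and at most 10% mitochondrial UMIs. It also had to hold at least 3 UMIs, and at least 0.2% of its UMIs, from the 4 genes Tmem212, Ccdc153, Rsph1 and Dynlrb2. Endothelial markers (Cldn5, Flt1) had to stay under 0.1%, microglial markers (Tmem119, P2ry12, Siglech, Gpr34, Sall1) under 0.2%, and choroid plexus markers (Kcnj13, Folr1, Sostdc1) at 1 UMI or less. In all, 443 of 34270 barcodes passing the UMI and mitochondrial limits met the rule, 116 of 16606 in the library labelled WT and 327 of 17664 in the library labelled KO. The rule uses measured expression, so the levels of its 4 genes and the choice of these cells by them are descriptions and support nothing.

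A motile cilium is built on an axoneme, a ring of doublet microtubules around a central pair. Dynein arms drive the sliding of the doublets, radial spokes and the central pair apparatus control it, and intraflagellar transport carries the parts to the tip. In multiciliated cells the transcription factor Foxj1 and factors of the Rfx family switch these genes on, and Rfx factors bind a sequence called the X-box. Cells that sense type I interferon transcribe another set, the interferon-stimulated genes, through a promoter element called the ISRE.

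Promoter windows of both gene groups are shown because the results turn on these groups. The axoneme group comprised 114 genes from 6 lists, of which 93 had a RefSeq promoter window of 300 bases (250 before to 50 after the start, GRCm38.p6). An X-box type motif, searched on both strands and spelled GTNNCC, then any pair of bases, then GGNAAC (N for any base), occurred in the windows of 11 of these 93 genes (11.8%), against 1.49% of 27025 genes. The 4 windows below are from genes measured in the ependymal cells, with the motif in capitals and the strand shown as printed.
Pifo, chr3:106001496-106001525, minus strand: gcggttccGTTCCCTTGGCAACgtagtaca
Iqca, chr1:90153515-90153544, minus strand: gccttgcaGTTGCCACGGAAACggaaacat
Cfap298, chr16:90935016-90935045, plus strand: aagtagctGTTGCCCGGGCAACcaaaaccc
Lrguk, chr6:34029422-34029451, plus strand: tgacgtcaGTCTCCTAGGCAACgcgtataa
Its stricter form, which starts with GTTGCC in place of GTNNCC, occurred in 3 of the 93 (3.23%) against 0.355% of all genes, and every match to it is also a match to the looser motif. Pifo's match to the stricter form lies on the plus strand of the same window. In the ependymal cells Pifo stood at 304 CPM (counts per 1000000 UMIs of the cells summed) in the library labelled WT and 352 in that labelled KO. Iqca stood at 258 and 320, Cfap298 at 228 and 234, and Lrguk at 177 and 146.

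Of the 47 interferon-induced genes on the list, 37 had a promoter window. An ISRE type motif, spelled GAAA, then any pair of bases, then GAAA, and searched on both strands, occurred in 21 of these (56.8%), against 3.99% of all genes and 2 of the 93 axoneme genes. With CT required after it, a form whose matches all contain the shorter motif, the count was 13 of 37 (35.1%) against 0.303%. Windows of 5 interferon genes described below carry the motif in capitals.
Ifit3, chr19:34583363-34583392, minus strand: accagaagagGAAAGTGAAActtaccactg
Ifit1, chr19:34640775-34640804, minus strand: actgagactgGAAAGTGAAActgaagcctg
Isg15, chr4:156200871-156200900, minus strand: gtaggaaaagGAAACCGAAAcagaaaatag
Bst2, chr8:71537583-71537612, minus strand: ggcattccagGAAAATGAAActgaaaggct
Cxcl10, chr5:92349083-92349112, minus strand: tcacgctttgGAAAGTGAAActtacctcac
A match is a description of these letters and was not tested as a binding site.

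The 2 libraries were alike in depth, with 127429919 UMIs in 18228 barcodes of the library labelled WT and 131196245 in 19159 of that labelled KO. They shared 103 barcode sequences, none of them ependymal in both. The targeted gene gave no check of the label in ependymal cells, where Cd200r1 had 1 UMI in the library labelled WT and 3 in that labelled KO. In the microglia reference cells, where the receptor is normally made, it stood at 22.9 CPM in the library labelled WT and 20.9 in that labelled KO, so the 3′ counts do not separate the genotypes and the libraries are called by their labels throughout. Its ligand Cd200 had 20 and 32 UMIs in ependymal cells, or 22.04 and 24.9 CPM. Genotypes could not be tested against each other with a single library each, every difference below is between 2 libraries, and all intervals are 95% intervals for counting error only. None of these differences has a replicate check.

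Ependymal cells made up 0.699% of the passing barcodes labelled WT (exact Clopper-Pearson interval 0.578 to 0.837%) and 1.85% of those labelled KO (1.66 to 2.06%), a ratio of 2.65 (2.14 to 3.30). The ratio was larger in shallow cells. Among barcodes of at least 5000 UMIs the ratio was 1.72 (1.13 to 2.64), from 37 of 7470 and 67 of 7865, and among barcodes under 5000 UMIs it was 3.07 (2.38 to 3.999). Choroid plexus reference cells, the other epithelium of the ventricles, chosen by a mirrored rule, went from 0.801 to 1.38% of barcodes (ratio 1.72). Astrocyte reference cells went from 2.13 to 2.63%, microglia from 37.3 to 37.4% and endothelial cells from 23.3 to 22.7%. Because the CD11b enrichment and the dissociation precede the count, cells retained in the tissue and cells carried through the enrichment cannot be told apart.

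The rule left out many cells that carried the same cilium genes. The marker limits alone were passed by 266 and 672 barcodes, and the limit of 1 choroid UMI was exceeded by 74 and 176 of these. Those barcodes were deep, with medians of 22541 and 17846 UMIs, and their axoneme genes summed to 29731 and 27399 CPM, against 27326 and 24930 in the cells kept. At the lower edge, 12 and 45 kept cells had exactly 3 marker UMIs and stood at 8585 and 8702 axoneme CPM, while 22 and 57 barcodes left out with exactly 2 marker UMIs stood at 4941 and 6422. Few cells lay near the share limit, with 3 and 5 kept at 0.2 to 0.25% and 2 and 5 left out at 0.15 to 0.2%.

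The ependymal label held for genes outside the rule. Foxj1, the regulator of motile cilia (chromosome 11, 116330704 to 116335399, GRCm38), stood at 408 CPM in the library labelled WT and 364 in that labelled KO. Its highest level among the 4 reference cell sets was 27.0 CPM in the library labelled WT and 39.1 in that labelled KO, both in choroid plexus cells. A Foxj1 UMI was found in 68.1 and 45.3% of ependymal cells, against 1.32 and 2.34% of microglia, whose median depths were 5616 and 5817 UMIs against 2168 and 1448 in ependymal cells. Dnah12, an axonemal dynein heavy chain (chromosome 14, 26693274 to 26891703), stood at 814 and 709 CPM and at 5.16 CPM or less in every reference set. Hydin, a central pair protein whose loss causes hydrocephalus (chromosome 8, 110266977 to 110610253), stood at 517 and 392 CPM. Markers of tanycytes, the related cells of the hypothalamic ventricle wall, were detected in part: the 12 genes of that list summed to 278 CPM in each library, against 797 and 603 in astrocytes, and 4 and 2 of them were at 0. Rax and Gpr50, defining markers, had 0 UMIs in both libraries and Crym had 0 and 3. The choroid genes Kcnj13, Sostdc1 and Kl stood between 2.20 and 22.5 CPM. Other choroid genes stood higher, with Folr1 at 28.7 and 49.0 CPM, Clic6 at 33.1 and 35.7 and Ttr at 2650 and 7952. For Kcnj13, Sostdc1 and Folr1 together, 1 UMI per cell was the most the rule allowed.

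Counted over whole lists, 104 of the 111 axoneme genes with at least 50 UMIs were at least 2-fold above every reference set in both libraries, where 12.9% of all 7189 such genes were. The cells were chosen by cilium markers, so the counts describe them and test nothing. All 16 measured central pair genes met that limit, with 18 of 19 dynein arm genes, 17 of 19 genes for dynein docking and assembly, 14 of 15 radial spoke genes, 12 of 13 genes of the nexin links and the molecular ruler, and 27 of 29 genes for proteins inside the doublet microtubules. For intraflagellar transport, which primary cilia of other cells also use, it was 19 of 26. Multiciliation regulators met it for 10 of 13 genes, and tubulins and their modifying enzymes for 9 of 13. Genes for ion, water and solute transport met it for 1 of 19, and none of 38 interferon-induced genes did.

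Leading this comparison was Cfap299, a cilia- and flagella-associated gene (chromosome 5, 98329304 to 98802047). It stood at 1351 and 1226 CPM, 69.4 times the highest reference level in the library with the lower ratio, both levels plus 10 CPM. The next genes included Fam183b at 899 and 1052 CPM, Dnah12, Spag17 of the central pair at 561 and 448, and Enkur, an inner microtubule protein, at 671 and 669. Ak7, an adenylate kinase of cilia, stood at 730 and 659 CPM. Genes not usually listed for the axoneme were also among the 20 highest by this ratio, including Calb1, a calcium-binding protein, at 522 and 415 CPM, Unc5cl at 583 and 368, and Rgs22, a regulator of G protein signalling, at 622 and 526. The 20 also held the uncharacterised 3300002A11Rik (989 and 856 CPM) and 1700094D03Rik (1022 and 1225 CPM).

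Other genes of ependymal cells were abundant without being particular to them by this limit. Dbi, an acyl-CoA binding protein, stood at 10526 and 12900 CPM, and the metallothionein Mt1 at 8281 and 9487. Vim, an intermediate filament, stood at 852 and 1183 CPM, Sox9, a glial transcription factor, at 577 and 427, and S100b at 576 and 579. Aquaporin-4 (Aqp4), the water channel of the ventricle wall, stood at 335 and 334 CPM and connexin 43 (Gja1) at 338 and 292. These are 3′ UMI counts that are not scaled by gene length, so levels are set beside each other for 1 gene across cells and not between genes.

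**Figure D1:**
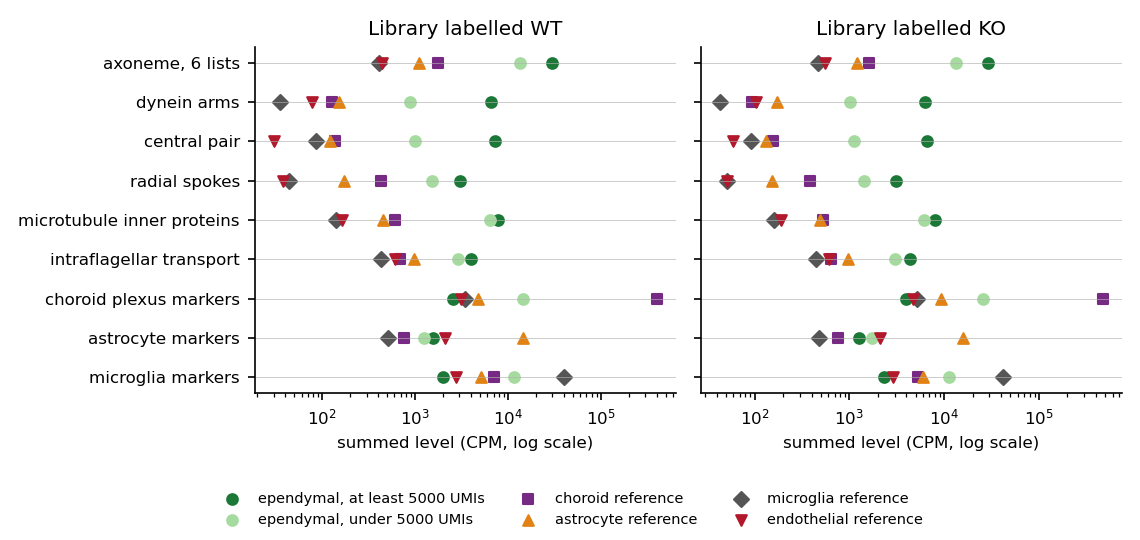
Summed levels (CPM, log scale) of 9 gene lists in ependymal cells of at least 5000 and under 5000 UMIs and in 4 reference cell sets, by library. Both ependymal groups lie above every reference set for all 6 cilium rows, and the cells under 5000 UMIs lie above the deeper ones for choroid plexus and microglia markers.

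The ependymal cells fell into 2 ranges of depth that differed in more than depth. A split at 5000 UMIs, chosen after the depths were seen, put 37 cells labelled WT and 67 labelled KO in the deep range, or 31.9 and 20.5% of the ependymal cells. They held 84.7 and 72.3% of all ependymal UMIs, so summed levels mostly describe these 104 cells. Malat1, a long noncoding RNA that stays in the nucleus, took a median of 1.93 and 2.03% of UMIs in deep cells and 0.170 and 0.121% in shallow ones. It reached 0.5% in 37 of 37 and 65 of 67 deep cells, and in 12 of 79 and 22 of 260 shallow cells. Mitochondrial transcripts took a median of 6.48 and 5.59% in deep cells and 1.86 and 1.96% in shallow ones. Ribosomal protein transcripts went the other way, at 5.94 and 7.23% of UMIs in deep cells and 11.6 and 13.1% in shallow cells.

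Cilium genes were lower in the shallow cells, and by very different factors. The axoneme lists summed to 29815 CPM in deep and 13538 in shallow cells labelled WT, and to 29352 and 13402 in those labelled KO. Dynein arm genes stood at 6591 against 886 CPM in the library labelled WT and 6284 against 1026 in that labelled KO. For the central pair the values were 7234 against 987 and 6659 against 1113. The 4 rule markers, which fix membership in both ranges, were not lower, at 5501 against 7299 CPM and 6173 against 6815. Dnah12 stood at 955 CPM in deep and 36.0 in shallow cells labelled WT, and at 958 and 58.9 in those labelled KO. Hydin stood at 606 against 21.6 and 529 against 36.4 CPM. Fam183b differed little and in the other direction, at 850 against 1174 and 1015 against 1149 CPM, and Enkur stood at 683 against 605 and 686 against 625.

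Counted at 2-fold in both libraries, 15 of 19 dynein arm genes, 14 of 16 central pair genes and 46 of 111 axoneme genes in all were higher in deep cells, and none was lower, where 17.9% of all genes were higher and 2.48% lower. Of 29 inner microtubule genes 5 were higher, and of 13 nexin and ruler genes 1. Among axoneme genes the ratio was larger for those with a longer genomic span, from start to end of the annotated gene. The median log2 ratio of deep to shallow was -0.03 and 0.28 for the 37 genes with the shortest spans (up to 21.0 kb) and 2.60 and 2.49 for the 37 with the longest (from 71.4 kb). Spearman's rho between span and that ratio was 0.73 and 0.75 over 111 axoneme genes and 0.56 and 0.61 over 7186 genes of all kinds. It is a description across genes of the same cells, which are not independent replicates. Of the axoneme genes, 39 met the limit of 2-fold above every reference set when the shallow cells were taken alone, against 104 for all members.

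RNA of choroid plexus and microglia markers was also more common in the shallow cells. For Kcnj13, Folr1 and Sostdc1 the rule's limit of 1 UMI per cell is tighter in deep cells. A gap between the depth ranges in these genes was therefore set by the choice of cells. Not every marker list went this way. Neuron markers stood at 187 CPM in deep and 64.8 in shallow cells labelled WT, and at 220 and 98.1 in those labelled KO. For tanycyte markers the values were 298 against 166 and 288 against 252. The choroid plexus marker list of 16 genes, mostly Ttr, summed to 2537 CPM in deep and 14425 in shallow cells labelled WT and to 3953 and 25481 in those labelled KO. Ttr, the transthyretin gene of the choroid plexus, was found in at least 99.1% of the cells of every set in both libraries, microglia and endothelial cells included. The 15 microglia markers summed to 1997 against 11535 CPM and 2310 against 11333, and stood at 39707 and 42074 CPM in microglia. Of the 9 macrophage markers 3 were at 0 in ependymal cells labelled WT and none in those labelled KO. The part that this RNA has in the shallow cells' other values was not tested. Astrocyte reference cells had the same kind of gap in Malat1, with medians of 3.91 and 4.21% in deep and 0.312 and 0.367% in shallow cells. It was not seen in microglia, at 1.57 and 1.37% against 2.34 and 1.78%.

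**Figure D2:**
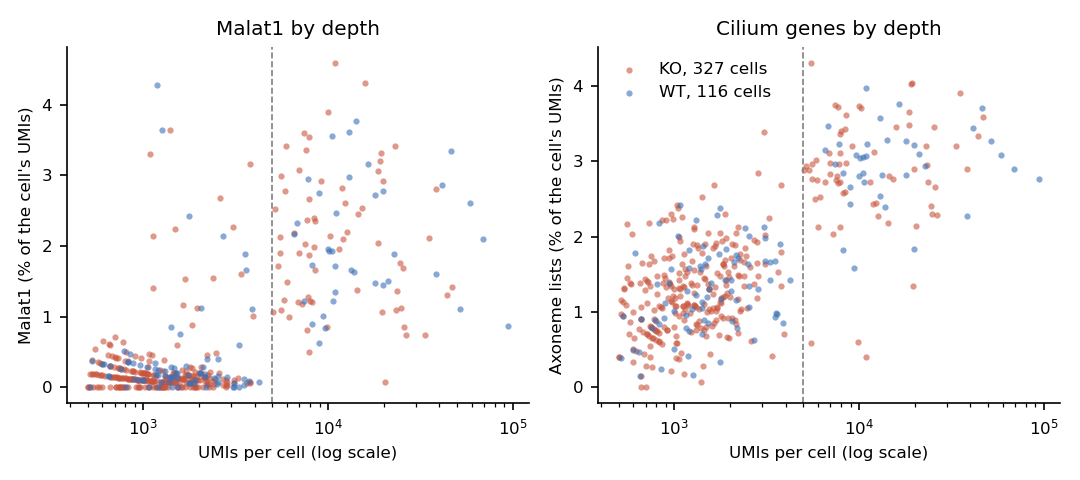
Each point is 1 ependymal cell, plotted by its UMIs (log scale) against the share of its UMIs from Malat1 (left) and from the 6 axoneme lists (right), with the dashed line at 5000 UMIs. Most cells under the line lie under 0.5% for Malat1, and cells above it have about 2 to 4% axoneme UMIs apart from a few low ones.

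Between the libraries few genes differed by 2-fold in ependymal cells, and single cells set the size of many of these differences. Of 7189 genes with at least 50 UMIs, 29 (0.403%) were at least 2-fold higher in the library labelled KO and 26 (0.362%) at least 2-fold lower, each level plus 10 CPM. In 5 of the 29 and 4 of the 26, a single cell held at least 50% of the gene's UMIs in the library where it was higher. Leaving out each gene's top cell in each library kept 24 of the 29 and 9 of the 26 at 2-fold. With a choroid marker share under 0.1% in place of the 1-UMI choroid limit, which took in 179 and 437 cells, 17 genes were higher and 0 lower.

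Genes that were higher in the library labelled KO without depending on 1 cell included Ifi27l2a, an interferon-induced gene (chromosome 12, 103442167 to 103443680). It had 62 UMIs in 23 cells labelled WT, or 68.3 CPM (52.4 to 87.6), and 287 UMIs in 128 cells labelled KO, or 223 CPM (198 to 250.4). Its log2 ratio was 1.57, and 2.05 without the top cells, since 23 of the 62 UMIs labelled WT lay in 1 cell. Ucma, a secreted matrix protein first known from cartilage (chromosome 2, 4976122 to 4985748), went from 32.0 CPM in 15 cells to 110.3 CPM in 57 cells, a log2 ratio of 1.52 (1.67 without the top cells). Anxa1, annexin A1, a phospholipid-binding protein with anti-inflammatory activity (chromosome 19, 20373428 to 20390944), went from 51.8 CPM in 21 cells to 142 CPM in 86 cells, a log2 ratio of 1.30 (1.46). In deep cells alone the log2 ratios were 0.99 for Ifi27l2a, 1.31 for Ucma and 1.16 for Anxa1, and in shallow cells alone, 2.15, 1.86 and 1.77. Ucma stood at 12.0 CPM or less in every reference set, and Anxa1 at 21.3 or less. Ifi27l2a was higher in the library labelled KO in the reference sets too, at 628 against 137 CPM in microglia. Microglia markers summed to 4812 CPM in ependymal cells labelled KO and 3456 in those labelled WT, against 42074 and 39707 in microglia, and the part of microglial RNA in these ratios was not tested.

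Ptgds, prostaglandin D2 synthase, made by the choroid plexus and meninges, went from 40.8 to 204 CPM, a log2 ratio of 2.08 (1.84 without the top cells). It stood at 2731 and 3451 CPM in choroid reference cells, and Ttr moved with it in ependymal cells, from 2650 to 7952 CPM. Of the 9 measured choroid markers 6 were higher by at least 25% in the library labelled KO and none lower, where 14.1% of all genes were higher and 19.9% lower. Their median log2 ratio was 0.61, and -0.22 in shallow cells alone. The rule allows 1 UMI of Kcnj13, Folr1 and Sostdc1 together per cell at any depth, so it bounds their levels by depth. Median depth was 2168 UMIs in ependymal cells labelled WT and 1448 in those labelled KO. The count of choroid markers is therefore a description only. The part of choroid RNA in the difference of Ptgds was not tested. Ccl12, a chemokine of myeloid cells, had 5 UMIs in 4 cells labelled WT and 51 UMIs in 37 cells labelled KO, at most 7 in 1 cell. In the cells left out by the choroid limit it had 13 and 27 UMIs, a log2 ratio of 0.18.

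The class II antigen presentation genes showed the largest ratios and rested mainly on 1 barcode. Cd74, the invariant chain, went from 20.9 to 281 CPM, H2-Eb1 from 7.71 to 124, H2-Aa from 8.82 to 110 and H2-Ab1 from 14.3 to 106. Of the 915 class II UMIs labelled KO, 652 lay in a barcode of 19478 UMIs that was called a doublet (2 cells in 1 droplet). The median log2 ratio of the 6 measured genes was 2.46, or 0.87 without each gene's top cell and 0.72 without the called doublets, and it was 0.17 in the cells left out by the choroid limit. Cd74 had a log2 ratio of 1.43 without its top cell, with UMIs in 15 of 116 and 50 of 327 cells. In the left-out cells its log2 ratio was 0.85. Class II genes are also made by macrophages and other antigen-presenting cells, whose part was not tested; macrophage markers summed to 30.9 CPM in ependymal cells labelled WT and 73.8 in those labelled KO.

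Npy, Fabp7 and Ptn were likewise carried by few cells. With Apod, a gene known from other glial cells, they had 1136 UMIs in ependymal cells labelled KO, of which 463 lay in 1 cell and 290 in another. The first of these had 0.210% rule markers, just over the limit, and 4015 axoneme CPM, and the second had 24079 axoneme CPM. Fabp7 went from 34.2 to 176 CPM, Ptn from 72.7 to 281 and Npy from 40.8 to 158.5. Among shallow cells their log2 ratios were 0.12, 0.06 and 0.00. Pdyn, the prodynorphin gene, had 5 UMIs in 3 cells labelled WT and 61 in 8 cells labelled KO, 25 and 18 of them in 2 cells with 33379 and 21390 axoneme CPM. Ccl5, a chemokine, had 6 UMIs labelled WT and 115 labelled KO, of which 108 lay in 1 cell. Without the top cells its log2 ratio was -0.01. In the cells left out by the choroid limit it had 1 UMI labelled WT and 23 labelled KO, a ratio of 14.9 with a counting interval of 2.43 to 615.

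At the other end, 1 cell labelled WT held 430 of the 590 UMIs of Gpc5, Lsamp and Slc1a2, genes of astrocytes and of cell adhesion. That cell had 58699 UMIs, 30818 axoneme CPM and 295 astrocyte marker UMIs. Gpc5, a glypican, went from 67.2 to 9.33 CPM with 57 of its 61 UMIs labelled WT in that cell, and its log2 ratio of -1.999 became 0.10 without the top cells. Lsamp went from 299 to 81.6 CPM, a log2 ratio of -1.75 that became -0.09. Zbtb16, a transcription factor induced by glucocorticoids (chromosome 9, 48654297 to 48836222), had no such carrier. It went from 47.4 CPM (34.3 to 63.8) in 14 cells to 14.0 CPM (8.29 to 22.1) in 16 cells, a log2 ratio of -1.26 (-1.08 without the top cells, -0.14 in shallow cells alone). It was also lower in microglia labelled KO, at 11.7 against 43.0 CPM, and in endothelial cells, at 210.0 against 407.

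The cells that only the choroid limit had removed give the same values in other cells of the same 2 libraries. They are not replicates, and they were taken up after the limit was seen to remove mostly deep cells. With a choroid marker share under 0.1% in place of the 1-UMI limit, 67 cells labelled WT and 134 labelled KO were gained. Some members did not meet the share limit, so the cells meeting it numbered 179 and 437. The 67 and 134 gained cells had medians of 28022 and 23776 UMIs, 1.70 and 1.502% Malat1 and axoneme sums of 29906 and 28527 CPM. The gene values that follow are for these gained cells alone. Ifi27l2a again stood higher in the library labelled KO, at 89.2 against 33.4 CPM (log2 ratio 1.19). So did Ucma, at 127 against 55.3 CPM (1.07), and Anxa1, at 142 against 71.5 CPM (0.90). Zbtb16 was again lower, at 17.0 against 34.3 CPM (-0.71). Cd74 stood at 21.7 against 7.63 CPM, Ptgds at 49.2 against 24.8 and Ttr at 1163 against 663. Fabp7 (0.09), Ptn (-0.26), Npy (-0.17), H2-Aa (0.10), Gpc5 (0.34), Lsamp (0.22) and Nrxn3 (-0.15) had log2 ratios between -0.26 and 0.34.

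**Figure D3:**
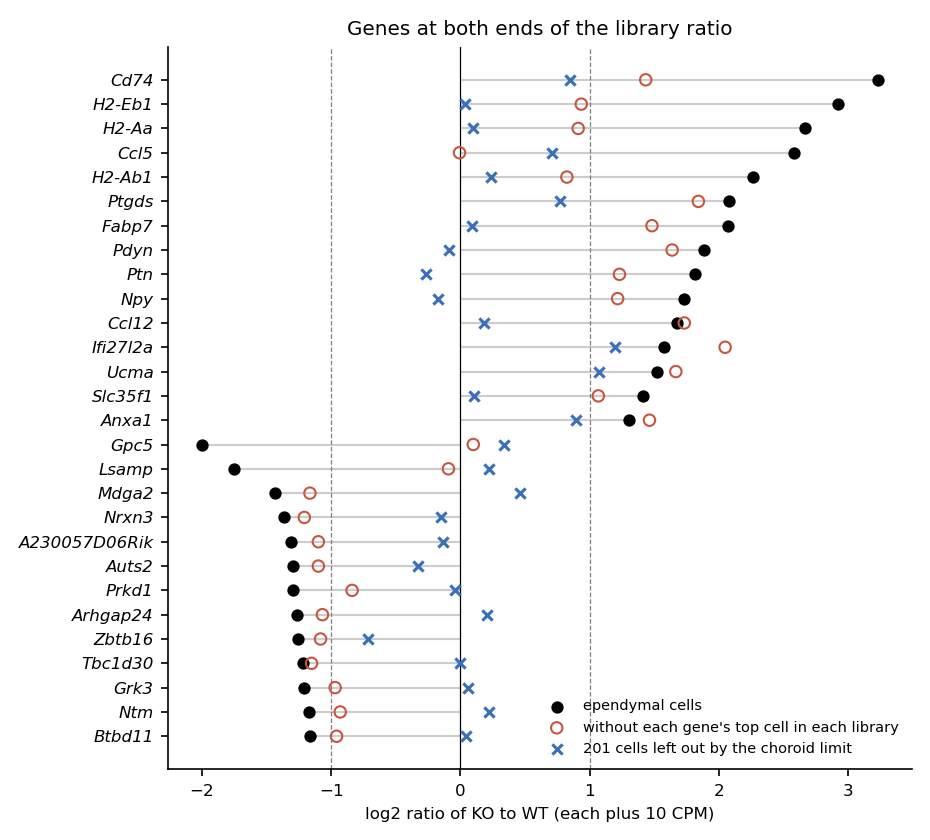
Log2 ratios of KO to WT CPM (each plus 10 CPM) for named genes at both ends of the ratio, in ependymal cells (black), without each gene's top cell in each library (open red) and in the 201 cells left out by the choroid limit (blue crosses), with dashed lines at 2-fold. Ifi27l2a, Ucma and Anxa1 lie to the right at all 3 marks and Zbtb16 to the left, while Ccl5, Gpc5 and Lsamp lie near 0 at the open marks.

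Interferon-induced genes as a group stood at the same summed level in ependymal cells of both libraries, 6341 CPM labelled WT and 6324 labelled KO. Over the 43 genes with at least 20 UMIs the median log2 ratio was -0.03, against -0.04 over all 10595 such genes. At a limit of 25% of the lower level, 6 were higher and 14 lower in the library labelled KO, where 14.1% of all genes were higher and 19.9% lower. Ifit3, which encodes an antiviral RNA-sensing complex member, went from 551 to 389 CPM, Ifit1 from 290 to 234 and Isg15, a ubiquitin-like modifier, from 291 to 339. Bst2, tetherin, stood at 363 and 388 CPM and Ifitm3, an entry restriction factor, at 1499 and 1720. The same list was higher in the library labelled KO in each reference set, with medians of 1.11 over 18 genes in choroid, 0.57 over 41 in astrocytes, 0.91 over 47 in microglia and 1.02 over 47 in endothelial cells. Over all genes measured in those sets the medians were -0.14, 0.02, 0.0033 and 0.014. Whether ependymal cells differ from these sets was not tested.

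A few cells carried much of the group in ependymal cells. The top cell held 1812 of 5754 interferon UMIs labelled WT (31.5%) and 1021 of 8139 labelled KO (12.5%), and the top 5 held 58.9 and 45.3%. The top cell held 3.73 and 2.22% in choroid cells, of which there were 133 and 243, and 3.58 and 2.59% in the 353 and 465 astrocytes. Such sums also weigh cells by depth. The ependymal top cells held 68694 and 26525 UMIs in all, where choroid cells held at most 14372 and 11307 and astrocytes at most 42103 and 25927. An ependymal cell of 93683 UMIs labelled WT held 645 interferon UMIs at a share of only 0.688%. The part of depth in this concentration was not tested. Per cell, the median share of interferon UMIs was 0.333% labelled WT and 0.419% labelled KO. Within deep cells it was 0.255 and 0.307%, and within shallow cells 0.368 and 0.441%, so the typical cell stood somewhat higher in the library labelled KO while the sums did not. The list's median log2 ratio was 0.16 without each gene's top cell and -0.06 with the choroid share limit in place of the 1-UMI limit. Under a mitochondrial limit of 5%, which keeps 82 and 263 cells, it was 0.57. With cells thinned to 1500 UMIs each, which leaves out 40 and 170 cells, the median share was 0.267 and 0.400%.

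At or above 1% interferon UMIs were 15 of 116 cells labelled WT (12.9%, exact Clopper-Pearson interval 7.42 to 20.4%) and 23 of 327 labelled KO (7.03%, 4.51 to 10.4%). After thinning the counts were 11 of 76 (14.5%) and 16 of 157 (10.2%). The line at 1% cuts a continuous range, with 2 and 19 cells between 0.8 and 1% and 3 and 5 between 1 and 1.2%. In reference cells labelled WT, 0 of 133 choroid cells reached 1%, which allows a share of up to 2.74%, and 0.630% of microglia and 4.06% of endothelial cells did. In the library labelled KO the shares were 0.412, 1.98 and 51.0%. In the cells left out by the choroid limit 5 of 67 (7.46%) and 5 of 134 (3.73%) reached it, and the median share was 0.195 and 0.295%.

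Among deep cells 6 in each library reached 1%. These cells were chosen by the interferon list, so its genes are given only to show their size: Isg15 stood at 1448 CPM in the 6 and 73.0 in the other 31 labelled WT, and at 2870 and 33.6 in those labelled KO. Class I antigen presentation genes, which the choice did not use but which interferon also induces, were higher in the same cells. Their share had a median of 0.826% in the 6 cells against 0.154% in the other 31 labelled WT, and of 1.07 against 0.177% labelled KO. H2-Q7, a class Ib gene that may share reads with its near copy H2-Q6, stood at 434 against 3.17 CPM and 556 against 4.97. Class II genes had medians of 0.0064 against 0.0024% and 0.0092 against 0.0054%, too few UMIs per cell to compare. Axoneme genes stood at medians of 2.99 against 3.05% and 2.81 against 2.90%. Microglia markers stood at 0.140 against 0.172% and 0.0873 against 0.175%, choroid markers at 0.339 against 0.282% and 0.416 against 0.470%, and endothelial markers at 0.0283 against 0.0122% and 0.0327 against 0.0130%. Cxcl10, a chemokine that draws T cells, went from 97.0 to 239 CPM between the libraries, with 65 of 88 UMIs labelled WT in 1 cell and 117, 91 and 45 of 307 labelled KO in 3 cells.

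**Figure D4:**
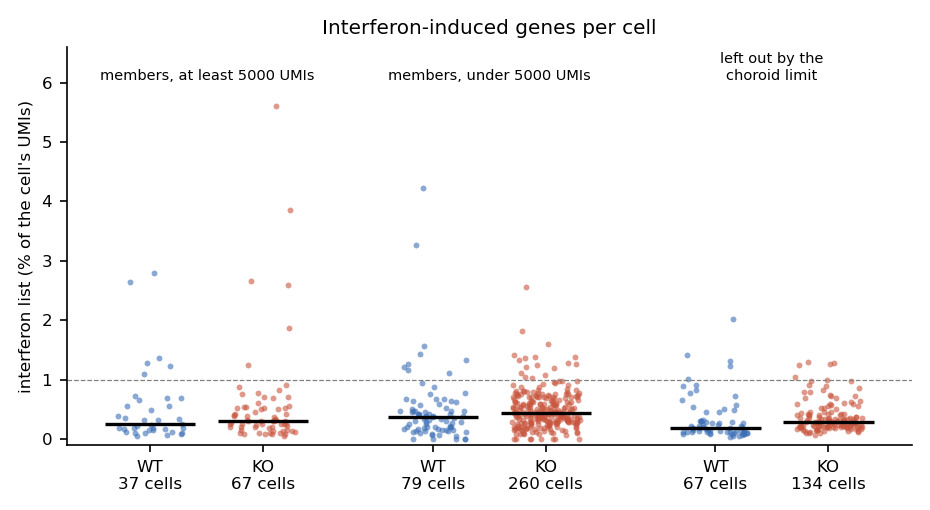
Share of each cell's UMIs from the interferon-induced list (points, with medians as bars) in ependymal cells of at least 5000 UMIs, under 5000 UMIs and in the cells left out by the choroid limit, by library, with the dashed line at 1%. Most cells lie under 1% in all 6 groups, single cells reach over 2% in 5 of the 6 groups, and the medians labelled KO lie slightly above those labelled WT.

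The lists for the cell's own machinery stood within a small range between the libraries. Axoneme genes had a median log2 ratio of -0.11 over 113 genes, with 3 higher and 24 lower by at least 25%. Over all genes 14.1% were higher and 19.9% lower, and these shares stand beside the other counts over all cells in this paragraph. Dynein arms stood at -0.24 (0 higher and 6 lower of 19) and the central pair at -0.30 (0 and 7 of 16). Within deep cells the medians were -0.06 and -0.13, and in shallow cells 0.16 and 0.29. With genes filtered again within the shallow cells they were 0.12 and 0.02. Deep cells held 84.7% of the ependymal UMIs labelled WT and 72.3% of those labelled KO, and the part of this in the medians of all cells was not tested. Intraflagellar transport stood at 0.07 and multiciliation regulators at -0.16, among them Rfx3, which went from 516 to 312 CPM. Oxidative phosphorylation genes had a median of 0.21 (6 higher and 0 lower of 36), metal-binding and antioxidant genes 0.20 (5 and 0 of 23) and secreted factors 0.19 (7 and 2 of 17), among them Apoe at 5411 and 7962 CPM and Cst3 at 4608 and 7461. Transport genes of the ventricle wall stood at -0.21 (2 higher and 5 lower of 21). In shallow cells alone they stood at 0.47 (11 higher and 2 lower), where 3279 of all 10595 genes were higher and 3127 lower. With a mean over cells they stood at 0.10. Class I genes stood at -0.13 (4 and 8 of 20).

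Glucocorticoid-induced genes had a median of -0.37, with 0 higher and 7 lower of 13, where 14.1% of all genes were higher and 19.9% lower. Tsc22d3, which encodes the leucine zipper GILZ, went from 334 to 214 CPM, Klf9 from 302 to 208 and Fkbp5, a co-chaperone of the receptor, from 41.9 to 24.1. The list stood at -0.65 in choroid cells, -0.29 in endothelial cells, -0.18 in microglia and -0.06 in astrocytes. Genes of the circadian clock had a median of -0.33, with 1 higher and 10 lower of 18, where 19.9% of all genes were lower. In shallow cells alone the median was 0.33, with 9 higher and 7 lower, where 3279 of all 10595 genes were higher and 3127 lower. Tef went from 139 to 73.8 CPM and Rora from 1177 to 813, while Nr1d1, a clock repressor, went from 46.3 to 90.1. In the cells left out by the choroid limit the glucocorticoid median was -0.07 and the clock median -0.02. The hour at which each mouse was taken is not given in the sources used here.

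**Figure D5:**
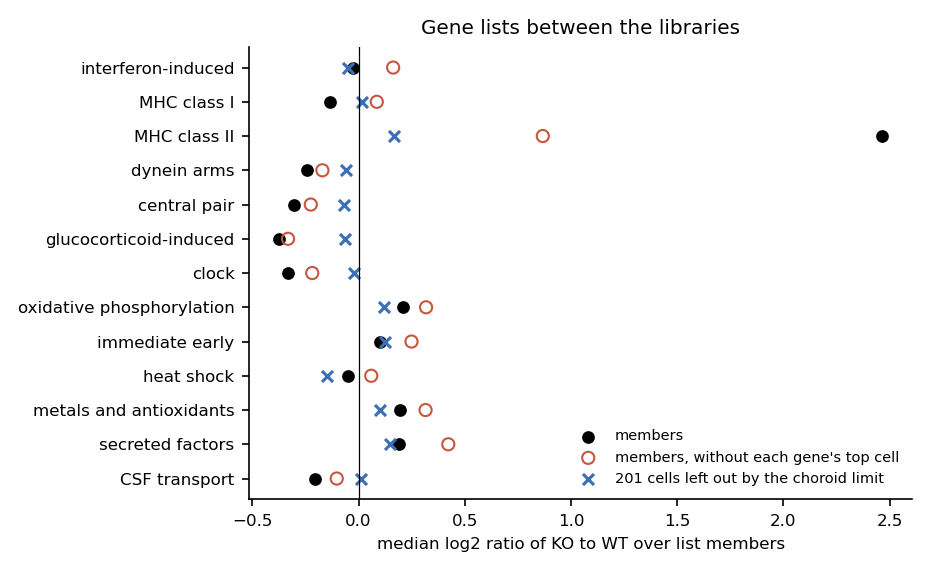
Median log2 ratio of KO to WT over the members of 13 gene lists in ependymal cells (black), without each gene's top cell in each library (open red) and in the 201 cells left out by the choroid limit (blue crosses). The class II list lies at 2.46, 0.87 and 0.17, while the other 12 lie between -0.37 and 0.42.

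Transcription factors that mark regions of the neural tube had UMIs in part of the deep ependymal cells. Emx1, of the dorsal telencephalon, had a UMI in 5 of 37 deep cells labelled WT and 8 of 67 labelled KO, and Six3, of the anterior forebrain and hypothalamus, in 6 and 14. En1, of the midbrain and anterior hindbrain, had one in 11 (29.7%, 15.9 to 47.0%) and 9 (13.4%, 6.33 to 23.97%). Otx2, of the forebrain and midbrain and also of the choroid plexus, had one in 6 and 20. In microglia of all depths at most 0.605% had a UMI of Emx1, Six3 or En1, and 1.05 and 1.56% one of Otx2. Of these microglia 52.8 and 58.3% held at least 5000 UMIs, as all deep ependymal cells did, so the shares are not at equal depth. After thinning to 1500 UMIs per cell, Emx1 was found in 1 and 2 ependymal cells (1.32 and 1.27%) against 0.0222 and 0.0379% of microglia. Six3 was found in 1 and 5 (1.32 and 3.18%) against 0.133 and 0.171%, and Otx2 in 4 and 5 (5.26 and 3.18%) against 0.421 and 0.417%. Hox genes of the posterior hindbrain and spinal cord had no UMI in the 37 deep cells labelled WT, which allows a share of up to 9.49%. They had one in 1 of the 67 deep cells labelled KO.

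Emx1 or Emx2 was found in 6 and 12 deep cells and En1 or En2 in 12 and 13, and both kinds in 2 and 2. The hypothalamic list was found in 6 and 14 cells, together with Emx1 or Emx2 in 1 and 4 and with En1 or En2 in 0 and 0. Whether these factors shared cells more or less often than their frequencies give was not tested. None of these factors was found in 16 and 34 cells. Factors shared by several regions were found in more cells: Irx5 in 25 and 32 deep cells (67.6 and 47.8%), Irx3 in 18 and 23, Zic4 in 16 and 20 and Nr2f1 in 28 and 36. At all depths Nr2f1 was found in 31.0 and 17.7% of ependymal cells and in 29.2 and 21.9% of astrocytes. Irx5 was found in 24.1 and 17.1% against 3.68 and 3.01% of astrocytes. For Irx3 the shares were 19.8 and 11.6% against 0.567 and 1.72%, and for Zic4 14.7 and 9.48% against 2.83 and 5.16%. With cells thinned to 1500 UMIs, Irx5 was found in 7.89 and 7.64% of ependymal cells and 0.0443 and 0.0569% of microglia, Nr2f1 in 13.2 and 12.7% against 0.310 and 0.777%, and En1 in 1.32 and 0.637% against 0.0222 and 0%. Differences in these shares between the libraries were not tested.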

How the data were processed

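Single-cell UMI counts of whole-brain, CD11b-enriched cell suspensions were analysed, 1 library per genotype. The authors deposited raw UMI counts, a value for each gene in each barcode; per the file headers the matrices were written by Cell Ranger 7.0.1, and STAR, Seurat 3.1.1 and the builds GRCm38 and mm10 are named in the submitters' processing notes without their role. No column was left unmapped. The 32285 genes were used as deposited. Whether counting used introns is not given in the sources used here.

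Cells were chosen by the rule in the report. Reference sets were chosen by mirrored marker limits. Doublets were called with Scrublet (scanpy 1.11.5) per library, marking 1.12% and 3.27% of barcodes (0 and 2 of them ependymal), fewer than the 0.8% per 1000 barcodes assumed, so doublets remain; called cells were kept, and left out as an alternative. UMIs of the ependymal cells were summed per library and scaled to counts per 1000000 (CPM). Log2 ratios of KO to WT were taken after adding 10 CPM, over genes with at least 50 UMIs in both libraries together (20 for list medians). A gene was called at 2-fold, and a list member counted as higher or lower at a difference of 25% of the lower level. Intervals are exact (Poisson for sums, Clopper-Pearson for shares, conditional binomial for ratios) at 95%; molecules of 1 cell are not independent, so they cover counting error only. The ratio procedure was tested on simulated data, drawn as Poisson counts of library sums without variation between cells. That simulation cannot speak to genes whose UMIs lie mostly in 1 cell. With 1 library per group no p-value was computed.

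The 47 gene lists held 811 entries, of which 809 matched a gene in the matrix. Members and lists were chosen with earlier results of these data known, and so were the rules. Named genes are the 4 rule markers, the 20 genes highest over the reference sets, the 15 highest and 15 lowest between libraries (without mitochondrial, ribosomal, haemoglobin, sex-linked, immunoglobulin, receptor-segment and predicted Gm genes and Cd200r1), and members of the lists; in the choice between libraries, markers of other cell types were left out. Some genes that these rules and lists take in are not reported here. The split at 5000 UMIs, the omission of each gene's top cell and the choroid share limit were chosen after seeing the data. Coordinates are from GENCODE vM21 (GRCm38). Promoter windows are from RefSeq (GRCm38.p6), and motifs were searched on both strands. Python 3.11.15 with numpy 2.4.6, pandas 2.3.3, scipy 1.17.1 and matplotlib 3.10.9 was used.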

Additional observations from a re-analysis of the deposited data

Results flagged for a closer look

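In 9 of the named genes the ratio between the libraries went one way in ependymal cells and the opposite way in a reference set of the same libraries. With 1 library per group these differences were not tested. The share of all genes that do so is not given here, so the 9 are a description only. Fabp7 had a log2 ratio of KO to WT of 2.07 in ependymal cells and -0.66 in astrocytes, Npy 1.73 and -0.90, and Slc35f1 1.41 and -0.56, with 21 of the 44 Slc35f1 UMIs labelled KO in 1 cell. Ptn had 1.82 in ependymal cells and -0.98 in choroid plexus cells, and Anxa1 1.30 against -0.63 in endothelial cells. Of the genes lower in ependymal cells labelled KO, 4 were higher in microglia: Gpc5 (-1.999 against 0.44), Lsamp (-1.75 against 0.55), Nrxn3 (-1.36 against 0.34) and Ntm (-1.17 against 0.41). Without each gene's top cell the log2 ratios in ependymal cells were 1.07 for Slc35f1, -1.21 for Nrxn3 and -0.93 for Ntm. Gpc5 and Lsamp lost their 2-fold difference without their top cells, as given above. In the cells left out by the choroid limit, Anxa1 had a log2 ratio of 0.90. There Fabp7 had 0.09, Npy -0.17, Slc35f1 0.10, Ptn -0.26, Gpc5 0.34, Lsamp 0.22, Nrxn3 -0.15 and Ntm 0.22.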

How the results depend on the processing

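No paired analysis was possible because each genotype has 1 library. With 1 library per group no replicate could be left out. The ratio of the ependymal share, 2.65, was 1.85 among barcodes of at least 1500 UMIs and 1.72 among those of at least 5000. The count of 29 genes at least 2-fold higher in the library labelled KO and 26 lower became 45 and 100 with at most 5% mitochondrial UMIs, 56 and 72 when 1 CPM was added to each level, 13 and 3 when 50 CPM was added, 124 and 194 with a mean over cells, 19 and 7 with cells thinned to 1500 UMIs, and 52 and 48 with a minimum of 10 UMIs. It became 17 and 0 with the choroid share limit, and the lower count was 14 with stricter marker limits, 14 with a minimum of 100 UMIs and 10 without each gene's top cell. These counts say nothing of which genes are shared. Of the list medians, 3 passed a difference of 25%. That number was 1 at 1500 UMIs or more, 1 with the choroid share limit, 1 with 50 CPM, 5 with thinned cells and 9 in cells under 5000 UMIs, where fewer genes are measured. The interferon median of -0.03 was 0.569 with at most 5% mitochondrial UMIs, 0.125 with thinned cells and 0.163 without top cells. The class II median of 2.46 was 3.41 in cells of at least 5000 UMIs, with its genes filtered again there, and 0.49 with stricter marker limits. The axoneme count of 104 was 39 in cells under 5000 UMIs. The 22 regional factors found in at least 5% of the cells of either library were 14 with at most 5% mitochondrial UMIs, 8 in cells under 5000 UMIs and 9 with thinned cells. Where nothing else is said, the cause was not tested.

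Among named genes and the list medians past 25%, signs turned as follows. List medians in cells under 5000 UMIs are here over genes filtered again in those cells, so they differ from the shallow-cell medians above. In cells under 5000 UMIs the clock median was 0.494, Lsamp 0.128, Mdga2 and Prkd1 0.642 and Ntm 0.302. With at most 5% mitochondrial UMIs Ptn was -0.0605, Npy -0.654 and Slc35f1 -0.398. With stricter marker limits Npy was -0.140, Gpc5 0.0195, Lsamp 0.746 and Ntm 0.134. With thinned cells Ccl5 was -0.0337, A230057D06Rik 1.99 and Auts2 0.129. Without top cells Ccl5 was -0.00661 and Gpc5 0.0997. Smaller list medians changed sign too, among them the transport median (-0.205 to 0.285 in cells under 5000 UMIs, 0.171 with thinned cells and 0.101 with a mean over cells), dynein arms (-0.243 to 0.121 in cells under 5000 UMIs), the central pair (-0.303 to 0.0366 with stricter marker limits) and interferon sensing (0.182 to -0.348 in cells under 5000 UMIs). Ifi27l2a stayed between 0.99 and 2.35, Ucma between 0.97 and 2.27, and Anxa1 between 0.92 and 2.61 over the alternatives run. Of 70 values of counts and shares 42 stayed within their limit, of 420 list medians 350 and of 390 values of named genes 194. The alternatives with 5000 UMIs, without top cells and with the choroid share limit were chosen after seeing the data.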
